A study of Mus musculus with 48 samples.

Results

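A group of genes from the tumour necrosis factor (TNF) ligand and receptor superfamilies were followed in RAW264.7 cells, a mouse macrophage line. They were taken from the deposited count table by symbol and make up 9 of its 49568 lines: the ligands Tnf, Tnfsf9, Tnfsf10 and Tnfsf12 and the receptors Tnfrsf1a, Tnfrsf1b, Tnfrsf9, Fas and Tnfrsf10b. The cells had been cultured for 72 h with PBS, with a synthetic peptide at 100 µg/ml, with IFN-γ (labelled IFNy) at 5 ng/ml, or with a peptide and IFN-γ together, with fresh medium at 48 h. The peptide labelled 65-79*LE stands for residues of the HLA-DR β chain in a lupus-risk allele. Those labelled 65-79*SE and 65-79*PE stand for the same residues in an arthritis-risk and in a protective allele. This gives 8 groups, called PBS, LE, SE, PE, IFN-γ, LE+IFN-γ, SE+IFN-γ and PE+IFN-γ below, with 6 libraries of polyadenylated RNA each.

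Replicates 1 to 3 of each group carried a letter as label and replicates 4 to 6 carried a number after "HLA". The 24 letter-labelled libraries held 16.5 M to 26.9 M counts (M for mega), and their 20 IFN-γ target genes went with the label in every library, with a mean log2(CPM + 0.01) of 0.52 to 1.17 without IFN-γ and 6.95 to 7.36 with it. CPM stands for counts scaled to a library total of 1 M. In the HLA-labelled libraries (14.1 M to 42.6 M counts) 12 of 24 went against their IFN-γ label. Of these 24 columns, 0 stand, in the deposited table, behind the letter-labelled columns of their own labelled group, and the IFN-γ state of the group they stand behind goes with the target genes in 24 of 24. Whether the labels or the column names were exchanged is not known, and the libraries were kept as labelled, so the values below are those of the letter-labelled libraries, 3 per group, and the effect of adding the others is given at the end. Of 10 macrophage markers 9 were present, with Csf1r, the receptor of the macrophage growth factor, at 698 to 1190 CPM, while Mertk reached 0.408 CPM at most. The 12 markers of other cell types summed to 1.31 to 2.8 CPM, and 11 of them stayed under 1 CPM. All groups come from 1 established cell line. The study calls the replicates biological, while the labels do not say whether they were separate cultures, so that p-values measure the spread between these libraries. In bulk RNA, fewer cells with a transcript and less of it per cell cannot be told apart.

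TNF superfamily ligands are mostly made as membrane proteins, and TNF itself is released by cleavage. They bind trimeric receptors that recruit TRAF adaptors and switch on NF-κB, or, where the receptor has a death domain, can start apoptosis or necroptosis. Macrophages are a major source of TNF, and IFN-γ is known to prime them for its production. Tnfrsf1a encodes the widely expressed TNF receptor with a death domain and Tnfrsf1b the second TNF receptor, which has none. Tnfrsf9 encodes CD137, a costimulatory receptor best known from T cells, and Tnfsf9 its ligand. Fas is the death receptor for Fas ligand, Tnfrsf10b the mouse death receptor for TRAIL, the product of Tnfsf10, and Tnfsf12 encodes TWEAK, the ligand of Tnfrsf12a.

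All 9 genes are protein-coding in the annotation of GRCm38 (GENCODE M21), and their counts are sums over exons. Tnf (chromosome 17, 35199381 to 35202007, minus strand) and Tnfsf9 (chromosome 17, 57105325 to 57107757, plus strand) lie on the same chromosome. Tnfrsf1b (145213463 to 145246870, minus strand) and Tnfrsf9 (150914562 to 150946102, plus strand) are both on chromosome 4. Tnfrsf1a is on chromosome 6 (125349362 to 125362484), Fas on chromosome 19 (34290666 to 34327772), Tnfsf10 on chromosome 3 (27317028 to 27342427) and Tnfrsf10b on chromosome 14 (69767472 to 69784411), all on the plus strand. Tnfsf12 (chromosome 11, 69686250 to 69695849, minus strand) shares 731 of its 1515 exonic bases, 48.3%, with the readthrough gene Tnfsfm13 on the same strand, and its counts are therefore uncertain. Tnfsf9 shares 192 exonic bases with a non-coding gene on the opposite strand, Gm11110, and whether strand was used in counting is not given in the sources used here.

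RefSeq promoter windows (GRCm38.p6) were found for 6 of the 9 genes. Those of the genes called below for IFN-γ or for a peptide with IFN-γ, Tnf, Tnfrsf9, Tnfrsf1b and Fas, are shown so that a reader can set them beside the expression data. Each is the 250 bases before the annotated start, 5′ to 3′ on the gene's strand, and capitals mark matches, on either strand, to the NF-κB consensus, to TTCNNNGAA (the letters bound by STAT dimers), to a pair of GAAA units with 2 bases between them (bound by interferon regulatory factors) or to TGANTCA (bound by AP-1). The windows are chr17:35202008-35202257 (minus) for Tnf, chr4:150927749-150927998 (plus) for Tnfrsf9, chr4:145246871-145247120 (minus) for Tnfrsf1b and chr19:34290409-34290658 (plus) for Fas.
Tnf: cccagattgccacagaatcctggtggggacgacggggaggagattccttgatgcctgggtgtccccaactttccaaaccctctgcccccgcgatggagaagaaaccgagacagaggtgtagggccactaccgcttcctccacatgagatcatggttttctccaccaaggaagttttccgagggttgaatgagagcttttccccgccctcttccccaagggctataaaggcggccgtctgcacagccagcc
Tnfrsf9: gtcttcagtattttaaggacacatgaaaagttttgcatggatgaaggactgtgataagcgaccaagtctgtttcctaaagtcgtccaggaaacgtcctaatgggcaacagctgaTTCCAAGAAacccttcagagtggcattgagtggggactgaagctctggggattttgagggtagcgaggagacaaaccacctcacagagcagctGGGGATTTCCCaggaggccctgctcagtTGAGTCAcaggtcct
Tnfrsf1b: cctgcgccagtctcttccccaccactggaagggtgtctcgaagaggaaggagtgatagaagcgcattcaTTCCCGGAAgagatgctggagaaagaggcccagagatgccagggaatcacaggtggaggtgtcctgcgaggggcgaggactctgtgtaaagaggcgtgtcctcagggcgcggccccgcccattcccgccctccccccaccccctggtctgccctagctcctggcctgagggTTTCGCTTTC
Fas: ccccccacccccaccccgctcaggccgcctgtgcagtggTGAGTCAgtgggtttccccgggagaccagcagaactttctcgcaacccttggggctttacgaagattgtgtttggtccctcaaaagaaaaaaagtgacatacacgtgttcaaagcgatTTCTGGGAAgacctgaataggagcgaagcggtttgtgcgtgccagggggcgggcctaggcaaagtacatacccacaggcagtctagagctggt

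The Tnfrsf9 window held overlapping NF-κB matches from -43 to -34 and from -42 to -33 relative to the start, a TTCNNNGAA match from -136 to -128 and a TGANTCA match from -15 to -9. RefSeq gives Tnfrsf9 another start further upstream (window chr4:150919905-150920154), whose 250 bases held no match. Tnfrsf1b held TTCNNNGAA from -181 to -173 and the paired GAAA units from -10 to -1, Fas held TGANTCA from -211 to -205 and TTCNNNGAA from -93 to -85, and the window of Tnf held none of the 4 motifs. Of all 32851 mouse windows of this length, 7.25% held the NF-κB consensus, 7.02% TTCNNNGAA, 2.98% the paired GAAA units and 6.75% TGANTCA. A match describes letters only and does not show that a factor was bound.

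The abundance of the members was compared per length, as RPKM (counts per 1000 exonic bases and per M of the library's total). In PBS, Tnfsf9 had 52.9 ± 12.8 RPKM and Tnfrsf1a 45.6 ± 1.68 RPKM (SD, n = 3), a distance within the spread of Tnfsf9. Tnf followed at 22.6 ± 4.42 RPKM, and Tnfsf12 at 17.7 ± 2 and Tnfrsf1b at 15.9 ± 0.85 RPKM. The length used for Tnfsf12 includes the bases shared with Tnfsfm13, so its place in this order is uncertain. The other receptors were lower, with Tnfrsf9 at 7.21 ± 2.87, Fas at 3.29 ± 0.883 and Tnfrsf10b at 1.52 ± 0.0544 RPKM (SD, n = 3). Tnfsf10 had no count in PBS. In LE+IFN-γ this order had changed, and Tnf was the most abundant member at 76.1 ± 6.5 RPKM, ahead of Tnfsf9 at 47.1 ± 2.79 and Tnfrsf1a at 41.9 ± 0.757 RPKM (SD, n = 3).

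**Figure D1:**
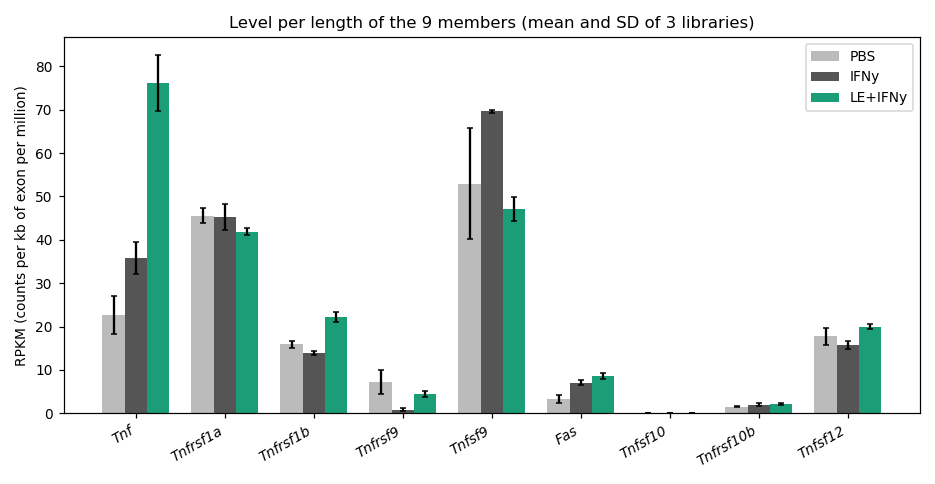
Level of the 9 members per exon length (RPKM, vertical axis) in the PBS, IFN-γ and LE+IFN-γ groups, as mean and SD of 3 letter-labelled libraries. Tnf goes from 22.6 RPKM in PBS, below Tnfsf9 and Tnfrsf1a, to 76.1 RPKM in LE+IFN-γ, above both, while Tnfsf10 is too low to be seen on this scale.

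Within single genes, levels were compared between groups in CPM, and Tnf was taken first. Its replicates 1, 2 and 3 were at 28.8, 42.2 and 40.1 CPM in PBS, and at 60.9, 52.1 and 63.3 CPM in IFN-γ. With a peptide added to IFN-γ, they were at 126, 114 and 135 CPM for LE, at 89.4, 84.2 and 85.6 CPM for SE and at 66.2, 61.6 and 66.4 CPM for PE. The 12 libraries with IFN-γ were all above the 12 without it, whose highest value was 46.7 CPM, and LE+IFN-γ and SE+IFN-γ each stood clear of the groups beside them in the order. How many of all genes are separated in such ways was not counted, for Tnf or for the members below. The peptides alone, with means of 41 ± 6.83 (LE), 38.6 ± 6.86 (SE) and 35.5 ± 9.47 CPM (PE), overlapped PBS (SD, n = 3).

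**Figure D2:**
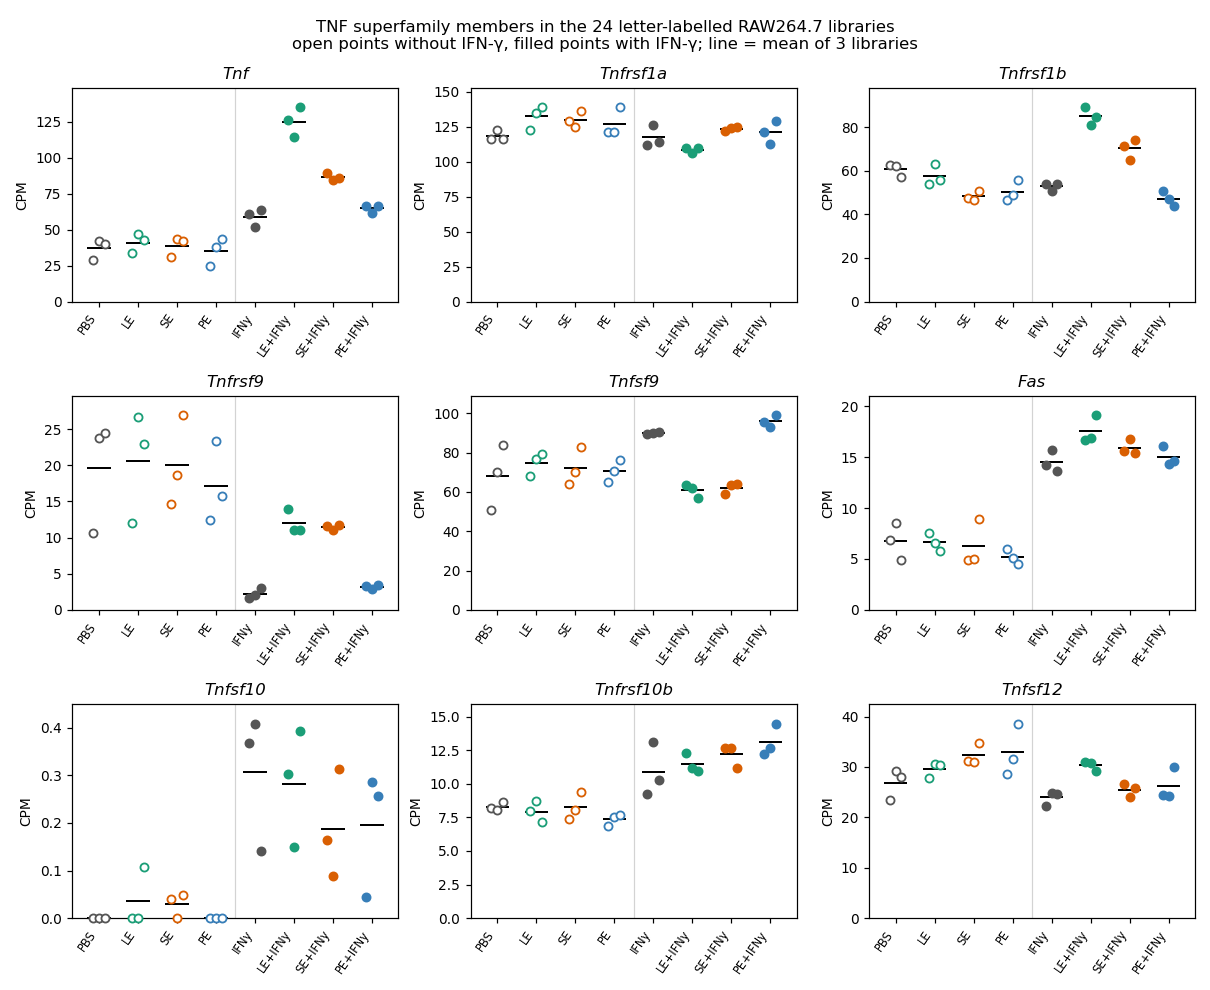
Each panel shows 1 member and each point 1 letter-labelled library, in CPM on a linear axis from 0, with open points without IFN-γ, filled points with it, and a line at the mean of 3 libraries. Tnf and Fas are higher in all 12 IFN-γ libraries than in any other, while Tnfrsf9 falls to 1.6 to 3.07 CPM in IFN-γ and lies between 11 and 14 CPM where LE or SE was added. The share of all genes separated in these ways was not counted.

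Tnfsf9, the CD137 ligand gene, was lower where LE or SE was added to IFN-γ. It was at 89.5, 89.7 and 90.2 CPM in IFN-γ and at 95.7, 92.8 and 98.9 CPM in PE+IFN-γ. In LE+IFN-γ it was at 63.6, 61.9 and 56.7 CPM and in SE+IFN-γ at 59, 63.4 and 63.9 CPM, so that these 6 libraries lay below all 6 with IFN-γ alone or with PE. The PBS libraries were spread widely, at 50.9, 70.1 and 83.7 CPM, and the peptides alone lay between 63.8 and 82.6 CPM.

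Tnfsf10, the TRAIL gene, was near the limit of detection. It had no count in any PBS or PE library, 0.107 CPM in 1 LE library, and at most 0.0483 CPM in SE. With IFN-γ every library had counts, at 0.369, 0.409 and 0.142 CPM for IFN-γ alone and from 0.0452 to 0.393 CPM with a peptide added. Set against a floor of 3 counts over the 3 PBS libraries, the summed counts were 7.02-fold higher in IFN-γ (22 counts) and 6.17-fold in LE+IFN-γ (21). They were 4.3-fold higher in SE+IFN-γ (14) and 4.48-fold in PE+IFN-γ (14). The floor covers counting error in PBS only, not that of the counts with IFN-γ or the spread between libraries. The lowest PE+IFN-γ library (1 count, 0.0452 CPM) was at the level of the floor (0.0447 CPM). The gene did not pass the filter on low counts, so the remaining 8 members were tested. Tnfsf12, the TWEAK gene, ranged from 22.3 to 31 CPM with IFN-γ and from 23.4 to 38.6 CPM without it, and neighbouring groups overlapped throughout its order.

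Among the receptors, Tnfrsf9 varied most in relative terms, from 1.6 to 26.9 CPM. Its replicates 1, 2 and 3 were at 10.6, 23.8 and 24.5 CPM in PBS and at 1.6, 2 and 3.07 CPM in IFN-γ. Adding LE to IFN-γ gave 14, 11 and 11.1 CPM, adding SE gave 11.6, 11 and 11.7 CPM, and adding PE gave 3.3, 2.91 and 3.47 CPM. The libraries of LE+IFN-γ and SE+IFN-γ thus overlapped each other and lay above all those of IFN-γ and PE+IFN-γ. Without IFN-γ, replicate 1 was the lowest library of its group for PBS and each of the 3 peptides, at 10.6 to 14.6 CPM against 15.8 to 26.9 CPM in the others.

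The TNF receptors differed from each other. Tnfrsf1b was at 62.7, 62.3 and 56.9 CPM in PBS, 54.1, 50.6 and 53.9 CPM in IFN-γ, and 50.5, 46.8 and 44 CPM in PE+IFN-γ. It reached 89.1, 80.7 and 84.7 CPM in LE+IFN-γ and 71.5, 64.8 and 74.2 CPM in SE+IFN-γ, and these 2 groups stood apart from each other and from all other groups. Tnfrsf1a showed the narrowest range in relative terms, from 106 to 139 CPM over 24 libraries, and its lowest group was LE+IFN-γ at 109 ± 1.96 CPM (SD, n = 3). The death receptor Fas was at 6.88, 8.56 and 4.92 CPM in PBS and at 14.2, 15.7 and 13.6 CPM in IFN-γ, and its 12 libraries with IFN-γ (13.6 to 19.1 CPM) did not overlap the 12 without (4.55 to 8.89 CPM). How often this holds over all genes was not counted. Tnfrsf10b ranged from 6.83 to 9.37 CPM without and from 9.22 to 14.5 CPM with IFN-γ, which overlap at their ends.

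The first comparison asked what IFN-γ alone changed. Genes were tested with edgeR's quasi-likelihood test in a fit across all genes, and a gene was called, or said to rise or fall, where the adjusted p was under 0.05 and the fold change over 1.5, a log2 fold change of 0.585. The log2 fold change of Tnf was 0.68 (standard error 0.137, adjusted p = 0.00217) and that of Fas 1.11 (standard error 0.177, adjusted p = 0.000461). Tnfrsf9 fell by 3.14 on the log2 scale (standard error 0.333, adjusted p = 2.29e-05). These 3 of 8 tested members stand beside 18.1% of all 12242 genes called in this comparison. Without replicate 1 Tnf was at 0.51, under the fold minimum. Tnfsf9 was at 0.41 (adjusted p = 0.0362), past the p threshold alone, and Tnfrsf10b was at 0.41 (adjusted p = 0.0534). The TNF receptors were at 0.01 (Tnfrsf1a, 95% interval -0.15 to 0.17) and -0.18 (Tnfrsf1b, -0.35 to -0.01). Of the 9 macrophage markers tested, Aif1, Fcgr1 and Adgre1 were also called as higher with IFN-γ. The sum of the list was 9190 to 11400 CPM over the 12 libraries without IFN-γ and 6650 to 9090 CPM over the 12 with it. Lyz2 weighed most in this sum, with a mean of 5620 CPM in PBS and 3790 CPM in IFN-γ. The mean log2(CPM + 0.01) of the list went the other way, at 6.49 to 7.03 without IFN-γ and 7.13 to 7.98 with it. The part of these markers in the results was not tested.

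Other genes of the TNF system were followed as lists, whose counts stand beside the same 18.1% of all genes called. Of 5 tested ligands 2 rose and 1 fell. The lymphotoxin gene Lta rose by 2.12 (standard error 0.326) and Tnfsf13b, which encodes the B cell factor BAFF, rose by 1.59 (standard error 0.2). The ligand that fell was Tnfsf13, by 0.99 (standard error 0.355), and the receptor that fell was Tnfrsf8, by 1.67 (standard error 0.457), both named after their values were seen and not called by DESeq2. Of 11 tested receptors 3 rose and 1 fell, led by Cd40 at 2.08 (standard error 0.112), a receptor for T cell help. Tnfrsf14, a receptor of LIGHT and lymphotoxin, was called at 1.16 (standard error 0.362), and Tnfrsf12a, the TWEAK receptor, at 0.59 (standard error 0.109). Among 28 receptor-proximal signalling genes 4 were called. Mlkl (1.24, standard error 0.0896) and Ripk3 (0.89, standard error 0.0964), which carry out necroptosis, rose, whereas Tnfaip3, the NF-κB inhibitor A20, fell by 0.86 (standard error 0.135) and the adaptor Traf1 fell by 0.64 (standard error 0.163). Of 12 genes that control Tnf mRNA or TNF release 3 were called. Rhbdf2 rose by 0.77 (standard error 0.0768), while its homologue Rhbdf1 fell by 1.13 (standard error 0.219) and Adam17, the protease that sheds TNF, fell by 0.99 (standard error 0.094). The list medians were 0.57 for ligands, -0.14 for receptors, 0.15 for signalling and -0.14 for mRNA control and release, beside -0.01 over all genes.

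Each peptide was also set against PBS in cells without IFN-γ. With LE, SE or PE, edgeR and DESeq2 called 0 of the 8 tested members, and 1, 3 and 2 of them had an unadjusted p under 0.05. Over all 12420 genes, 0.0242% passed both thresholds with LE, 1.92% with SE and 3.13% with PE. An unadjusted p under 0.05 was found for 1953, 3975 and 4405 of these genes in the same order. Tnf was at 0.19 with LE (95% interval -0.24 to 0.63), at 0.13 with SE (-0.31 to 0.56) and at 0.02 with PE (-0.41 to 0.46). The intervals of Tnfrsf9 were wide, at -0.61 to 0.83 for LE, -0.62 to 0.83 for SE and -0.83 to 0.62 for PE. The member nearest to a call was Tnfsf12 with PE, at 0.38 (standard error 0.125, adjusted p = 0.0445), under the fold minimum.

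In Model A, as the study calls it, a peptide together with IFN-γ is set against IFN-γ alone. With LE, Tnfrsf9 rose by 2.46 (standard error 0.173, adjusted p = 4.58e-09), Tnf by 1.1 (standard error 0.0767, adjusted p = 4.24e-09) and Tnfrsf1b by 0.7 (standard error 0.0657, adjusted p = 1.37e-07). These 3 of 8 members stand beside 15.5% of 12720 genes called. Each kept its call without any single replicate number, with ranges of 2.15 to 2.81, 1.08 to 1.12 and 0.68 to 0.72. Tnfsf9 was at -0.55 (standard error 0.0562, adjusted p = 3.52e-07), Tnfsf12 at 0.36 (adjusted p = 0.00228) and Fas at 0.29 (adjusted p = 0.00962). All 3 were significant by p with a fitted change under 1.5-fold, and whether the change itself is under 1.5-fold was not tested. Tnfrsf1a was at -0.1 (95% interval -0.22 to 0.03) and Tnfrsf10b at 0.1 (-0.15 to 0.35).

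**Figure D3:**
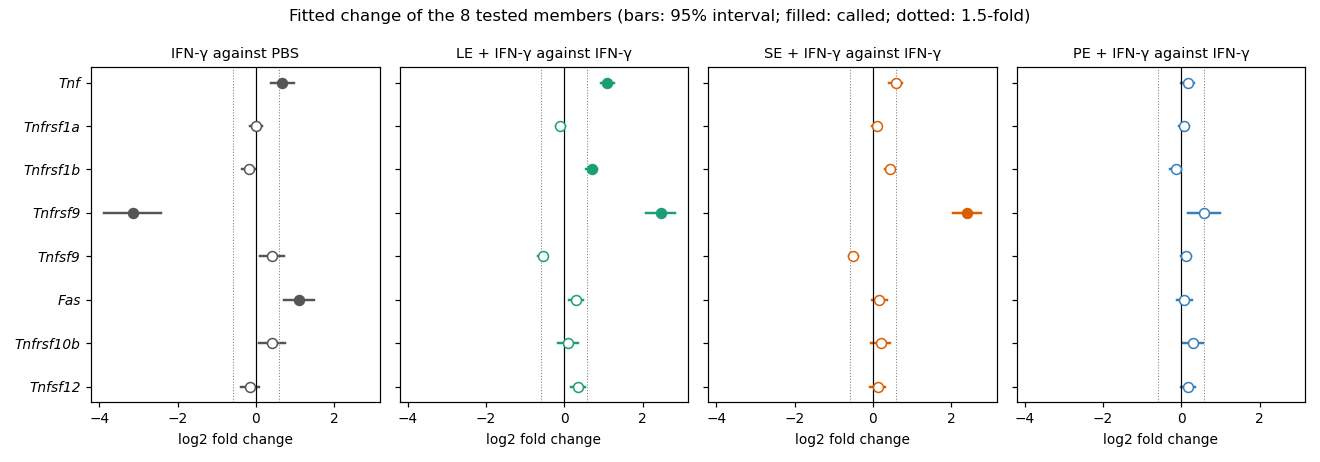
Fitted log2 fold change (horizontal axis) of the 8 tested members for IFN-γ against PBS and for each peptide with IFN-γ against IFN-γ, with bars for the 95% interval, filled points for called genes and dotted lines at 1.5-fold. Tnfrsf9 is at -3.14 for IFN-γ and at 2.46 and 2.4 when LE or SE is added, and no point is filled for PE.

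With SE, Tnfrsf9 rose by 2.4 (standard error 0.174, adjusted p = 1.35e-08), and it was the 1 member called of 8, beside 7.39% of all genes. Tnf was at 0.58 (standard error 0.0771, adjusted p = 1.47e-05), just under the fold minimum, and it was called at 0.59 by DESeq2, with RLE scaling, without the filter on low counts, with the replicate block and in a fit of all groups, and at 0.66 without replicate 3. Tnfrsf1b was at 0.44 (standard error 0.0661, adjusted p = 6.59e-05) and Tnfsf9 at -0.51 (standard error 0.0563, adjusted p = 2.18e-06). With PE, 0 of 8 members were called by edgeR or DESeq2, beside 0.629% of all genes. An unadjusted p under 0.05 was found for 4 members and for 3580 of all 12720 genes. Tnfrsf9 was nearest to a call, at 0.58 (standard error 0.199, adjusted p = 0.0691). The 3 peptides were measured against the same IFN-γ libraries, so a deviation of those libraries enters all 3 comparisons.

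The other lists were followed in the same comparisons, and their counts stand beside 15.5% of all genes called with LE and 7.39% with SE. With LE, Tnfaip3 rose by 1.52 (standard error 0.12) and Traf1 by 1.19 (standard error 0.0966), 2 of 28 signalling genes. The level of Tnfaip3 was 9.62 ± 1.03 CPM in IFN-γ, 27.3 ± 2.35 CPM in LE+IFN-γ and 23.1 ± 3.5 CPM in SE+IFN-γ (SD, n = 3). Zfp36l2 (1.57, standard error 0.0876), Zc3h12a (1.18, standard error 0.117) and Zfp36 (0.9, standard error 0.057) rose, 3 of 12 in their list. Zfp36 encodes tristetraprolin, which binds Tnf mRNA and speeds its decay, Zfp36l2 a protein of the same family, and Zc3h12a the RNase regnase. Zfp36 was at 43.3 ± 1.35 CPM in IFN-γ, 79.9 ± 2.83 CPM in LE+IFN-γ and 78.9 ± 1.97 CPM in SE+IFN-γ (SD, n = 3). Of 11 receptors, Eda2r (1.13, standard error 0.139), Tnfrsf26 (0.96, standard error 0.108) and Tnfrsf12a (0.72, standard error 0.0689) rose. The list medians were 0.13 for signalling, 0.22 for mRNA control and release and 0.12 for receptors, and for the 6 ligands, of which none was called by edgeR or DESeq2 and 2 had an unadjusted p under 0.05, it was 0.42. The median over all genes was -0.01, and 7116 of 12720 genes had an unadjusted p under 0.05 with LE.

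With SE, Traf1 (1.43, standard error 0.0961) and Tnfaip3 (1.29, standard error 0.121) rose, as did Zfp36l2 (1.03, standard error 0.0873), Zfp36 (0.89, standard error 0.0571) and Zc3h12a (0.64, standard error 0.119). Of the receptors, Tnfrsf26 (0.84, standard error 0.109) and Eda2r (0.59, standard error 0.144) rose, and of the ligands Tnfsf13b fell by 0.64 (standard error 0.132). The list medians with SE were 0 for signalling, 0.02 for mRNA control and release, 0.26 for receptors and 0.07 for ligands. With PE 0 genes of the 4 lists were called by edgeR or DESeq2, beside 0.629% of all genes. An unadjusted p under 0.05 was found for 1 of 6 ligands, 4 of 11 receptors, 18 of 28 signalling genes and 3 of 12 in mRNA control. Of all 12720 genes, 3580 had such a p with PE. The macrophage markers Adgre1 (0.93 with LE, 0.65 with SE) and Itgam (0.8 with LE) were called in the same libraries, 2 of 9 tested markers with LE and 1 of 9 with SE, and their part in these results was not tested.

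**Figure D4:**
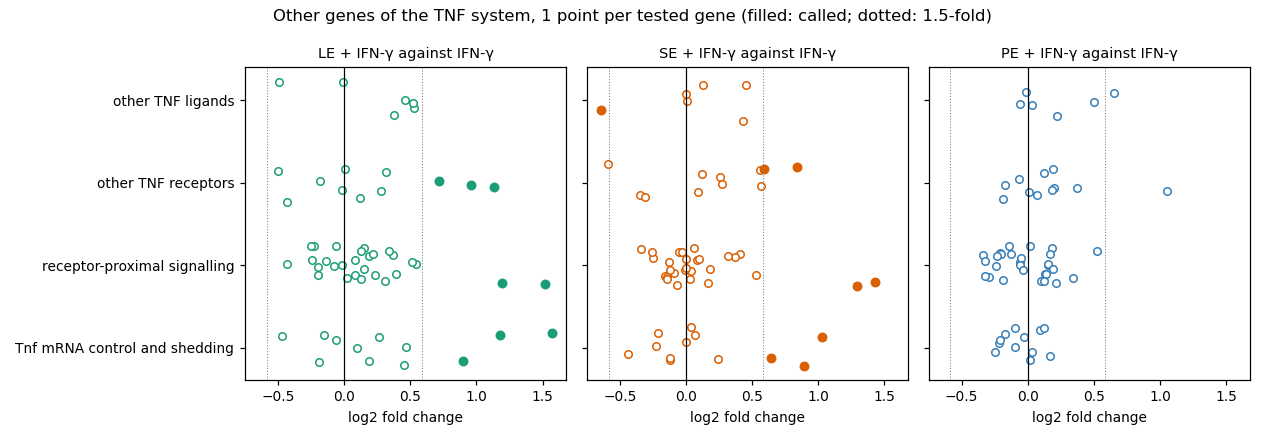
Each point is 1 tested gene of 4 lists of the TNF system (rows), placed by its log2 fold change for LE, SE or PE with IFN-γ against IFN-γ, filled where called and with dotted lines at 1.5-fold. The filled points on the right include Tnfaip3 and Traf1 among signalling genes and Zfp36l2, Zc3h12a and Zfp36 among genes of mRNA control, with LE and with SE and not with PE.

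The 3 pairs of peptides were then compared directly under IFN-γ, at the same dose and time. Between LE and SE, 0 of 8 members were called by edgeR or DESeq2, beside 4.93% of all genes. An unadjusted p under 0.05 was found for 4 members and for 5751 of all 12720 genes. Tnf was higher with LE by 0.52 (standard error 0.0749, adjusted p = 9.94e-05) and Tnfrsf1b by 0.26 (standard error 0.0646, adjusted p = 0.00496), both significant by p with a fitted change under 1.5-fold. Tnfrsf1a was at -0.2 (adjusted p = 0.0148) and Tnfsf12 at 0.24 (adjusted p = 0.04). For Tnfrsf9 the difference was 0.06, with a 95% interval of -0.24 to 0.36 (adjusted p = 0.771), and for Tnfsf9 it was -0.04, with an interval of -0.16 to 0.08 (adjusted p = 0.58). A 1.5-fold difference in either direction lies outside both intervals.

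Between LE and PE, 4 members were called, beside 21.6% of all genes. Tnfrsf9 was higher with LE by 1.89 (standard error 0.163), Tnf by 0.93 (standard error 0.0762) and Tnfrsf1b by 0.84 (standard error 0.0662), and Tnfsf9 was lower, at -0.67 (standard error 0.0562), with adjusted p values from 1.37e-08 to 3.74e-08. Between SE and PE, 2 members were called, beside 7.59% of all genes. Tnfrsf9 was higher with SE by 1.82 (standard error 0.164, adjusted p = 2.16e-07) and Tnfsf9 was lower, at -0.63 (standard error 0.0562, adjusted p = 2.1e-07). Tnfrsf1b was at 0.58 (adjusted p = 3.83e-06), under the fold minimum, but was called at 0.61 without replicate 1 and at 0.62 without replicate 2. Tnf was at 0.42 (adjusted p = 0.000417).

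In Model B, a peptide together with IFN-γ is set against the same peptide alone. Tnf rose by 1.58 with LE (standard error 0.152), by 1.13 with SE (standard error 0.153) and by 0.82 with PE (standard error 0.155). Fas rose by 1.38, 1.3 and 1.47 in the same order. Tnfrsf9 fell by 0.79 with LE (standard error 0.245), by 0.85 with SE (standard error 0.247) and by 2.46 with PE (standard error 0.288), and Tnfrsf10b was called with PE, at 0.79 (standard error 0.117). With LE 3 members were called, with SE 3 and with PE 4, beside 35.1%, 26.3% and 21% of 12947 genes. The fall of Tnfrsf9 with LE was -0.48 without replicate 2 and -0.65 without replicate 3, and with SE it was -0.57 without replicate 3, and these 3 values were not called. Leaving out replicate 2 added Tnfrsf1b (0.66) and Tnfrsf10b (0.62) for LE, and leaving out replicate 3 added Tnfrsf10b (0.7) for SE.

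The interaction tested directly whether a peptide altered the change with IFN-γ, in 1 fit of all 24 libraries. For Tnfrsf9 it was 2.34 with LE (standard error 0.456, adjusted p = 0.000296) and 2.29 with SE (standard error 0.457, adjusted p = 0.00096). For Tnfrsf1b it was 0.71 with LE (standard error 0.116, adjusted p = 4.23e-05) and 0.68 with SE (standard error 0.116, adjusted p = 0.000197). The interaction of Tnfsf9 was negative, at -0.74 with LE (standard error 0.172, adjusted p = 0.00164) and -0.67 with SE (standard error 0.172, adjusted p = 0.00794), and the value for SE was -0.55 without replicate 1 and -0.74 (adjusted p = 0.0575) without replicate 2, neither of them called. Tnf had an interaction of 0.9 with LE (standard error 0.229, adjusted p = 0.00337) and of 0.45 with SE (standard error 0.23, adjusted p = 0.175). Fas was at 0.19 with SE, and at 0.72 and called without replicate 3. With PE 0 of 8 members were called by edgeR or DESeq2 and 1 had an unadjusted p under 0.05. Over all 13096 genes, the share called was 18.9% with LE, 7.96% with SE and 0% with PE, where 1073 genes had an unadjusted p under 0.05 and DESeq2 also called 0.

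Tnfrsf9 and Tnfsf9 encode a receptor and its ligand, and their levels were set side by side by library. Under IFN-γ alone or with PE, Tnfsf9 was at 89.5 to 98.9 CPM and Tnfrsf9 at 1.6 to 3.47 CPM. Under IFN-γ with LE or SE, Tnfsf9 was at 56.7 to 63.9 CPM and Tnfrsf9 at 11 to 14 CPM, so that neither gene overlapped between these pairs of groups. How many of all genes were separated so was not counted, while 15.5% and 7.39% were called with LE and SE in Model A. Without IFN-γ Tnfrsf9 and Tnfsf9 were not arranged in this way, and the PBS library with the lowest Tnfrsf9 (10.6 CPM) also had the lowest Tnfsf9 (50.9 CPM).

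**Figure D5:**
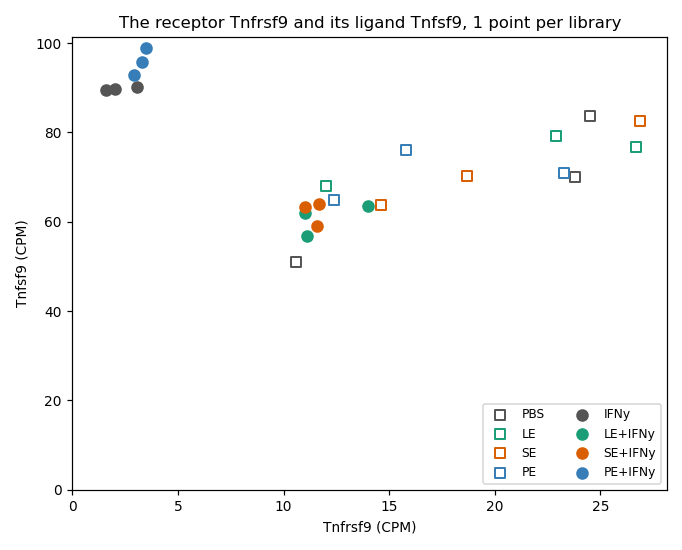
Tnfrsf9 (horizontal axis, CPM) against its ligand Tnfsf9 (vertical axis, CPM), 1 point per letter-labelled library, with open squares without IFN-γ and filled circles with it. The libraries of IFN-γ and PE+IFN-γ lie at the upper left, with Tnfrsf9 up to 3.47 CPM, and those of LE+IFN-γ and SE+IFN-γ lie together with Tnfrsf9 at 11 to 14 CPM.

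For the 3 members called in Model A, the genes with the most similar profile were found by Pearson's r of log2 CPM over the 24 libraries, among 9603 genes. These libraries fall into 2 blocks with and without IFN-γ, and r is given as a description. Nearest to Tnf were the chemokine gene Cxcl2 (r = 0.984), Myc (0.975) and Fyb (0.969), whose means were higher with IFN-γ (86.5, 31.7 and 216 CPM) than without (14.5, 4.04 and 83 CPM). Nearest to Tnfrsf1b were Sntb2 (0.954), Nav2 (0.954) and Zfp36l2 (0.936). Nearest to Tnfrsf9 were Hilpda (0.952), Mustn1 (0.941) and Fam20c (0.935), whose means were lower with IFN-γ (20.5, 3.46 and 80.7 CPM) than without (32.6, 9.79 and 158 CPM).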

How the data were processed

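RAW264.7 cells were sequenced as 48 libraries in 8 groups. By the study's methods, the authors made stranded poly(A) libraries, read 100 bases single-ended, and counted uniquely aligned reads with featureCounts. The build is recorded here as GRCm38.p5, which those methods do not name. The aligner and the strand setting are not given in the sources used here. The deposited values are whole-number counts per gene, not normalized. The submitters' processing notes name DESeq2 1.16.1 and R 3.4.1 for the authors' own tests, whose results were not used.

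The letter-labelled counts were tested with edgeR 4.0.16 (quasi-likelihood test, TMM scaling, filterByExpr) in R 4.3.3, with Benjamini-Hochberg adjustment over all genes of each fit. Fits held the groups compared, namely IFN-γ and PBS, the 4 groups without IFN-γ, the 4 with it, the 6 with a peptide, or all 8. The standard error of a log2 fold change is its size divided by the root of F. CPM used library totals, and RPKM used exon lengths of GENCODE M21, which is not the authors' release. Scripts were tested on simulated data. DESeq2 1.42.0, other scalings, no filter, a replicate block, leaving out each replicate number, 1 fit of all groups and both label series were alternatives.

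Replicates of 1 group were compared by chi-square per degree of freedom, which was at least 3.89, so each pair differed by more than counting error. Whether the replicates of a group came from separate cultures cannot be told from this. Of 84 correlations between deviations of same-numbered libraries of different groups, 46 were over 0.1, with a median of 0.137 and a lowest value of -0.414. Of 168 between differently numbered libraries, 49 were over 0.1, with a median of -0.062. Same-numbered libraries were thus more often alike. The main fits did not take the numbers as pairs, and the replicate block was run as an alternative.

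The members and lists were chosen with earlier results of these data known. The 9 members are named in every comparison. From each other list, up to 4 called genes per direction with the largest fold and a mean of at least 1 CPM are named for IFN-γ and for LE and SE in Model A, and 3 similar genes (mean at least 5 CPM) for members called there.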

Additional observations from a re-analysis of the deposited data

Results flagged for a closer look

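The change with IFN-γ differed between cells with and without a peptide, by the interaction test, for the following members. For LE these were Tnf (0.9), Tnfrsf1b (0.71), Tnfrsf9 (2.34) and Tnfsf9 (-0.74), as differences of log2 fold changes. For SE these were Tnfrsf1b (0.68), Tnfrsf9 (2.29) and Tnfsf9 (-0.67). For PE none was called by edgeR or DESeq2, and 1 member had an unadjusted p under 0.05, as did 1073 of all 13096 genes. Single outlying libraries were not tested for in groups of 3.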

How the results depend on the processing

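Of 128 values of members tested, 30 were called, beside 0% to 35.1% of all genes in the single comparisons. Of these 30, 26 kept their call in every alternative that used the letter-labelled libraries alone. The other 4, each lost when a replicate number was left out, were Tnf for IFN-γ against PBS, Tnfrsf9 in Model B with LE and with SE, and Tnfsf9 for the interaction of SE. The count of members called for SE in Model A was 2 in place of 1 with RLE size factors, with no filter, with DESeq2, with the replicate block and in 1 fit of all 8 groups. It was from 1 to 2 when a replicate number was left out, and these alternatives called 4.11% to 7.46% of all genes. The replicate block thus gave 2 members there, with Tnf at 0.59, and changed no other call of a member, and 16 of 24 libraries correlated best with libraries of their own number. Adding the HLA-labelled libraries as labelled had the largest effect. With both label series, the members called were 0 for IFN-γ against PBS, 1 for LE and 0 for SE in Model A, 0 for LE against PE and 0 for SE against PE, 0 for LE, 0 for SE and 1 for PE in Model B, and 0 for the interactions of LE and SE with IFN-γ. Over all genes in the same fits, 1 of 12917 was called for IFN-γ against PBS. In Model A 0.788% were called with LE and 0% with SE. In Model B 0.146%, 0% and 1.89% were called with LE, SE and PE. No gene was called for LE against PE, SE against PE or these interactions. Only 2 values were called with both series. They were Tnf in Model A with LE (1, adjusted p = 0.0155) and Tnfrsf9 in Model B with PE (-2.34, adjusted p = 0.0237). Neither shows that a call of the letter-labelled libraries held. Mean log2 levels of the IFN-γ target genes were 0.66 to 1.45 in the HLA-labelled IFNy libraries and 6.9 to 6.98 in LE+IFNy. There, Model A with LE thus compared high with low target genes. Target genes were high in HLA-labelled PE (7.31 to 7.45) and PE+IFNy (7.07 to 7.17), so Model B with PE compared 2 high groups there. With both series Tnf reversed to -0.18 for LE+IFN-γ against LE, to -0.86 for PE+IFN-γ against PE and to -0.24 for the interaction of LE, and Tnfrsf1b reversed to -0.16 for that interaction. These libraries include 12 that went against their IFN-γ label, and their columns stand beside other groups than their labels name, so these values hold only for the libraries as labelled, and the cause was not tested. The counts over all genes for PE alone (389) ran from 0 without replicate 1 to 1021 without replicate 2, those for SE alone (239) from 3 to 419 without the same replicates, and those for PE in Model A (80) from 4 to 250. The median log2 fold change of all genes lay within 0.0891 of 0 under every scaling. DESeq2 also called Tnfsf10 for IFN-γ against PBS and for PE+IFN-γ against PE.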

Other observations

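The HLA-labelled libraries gave the following levels as labelled, in CPM for replicates 4, 5 and 6. Their columns stand beside other letter-labelled groups in the deposited table (those labelled LE stand behind SE+IFNy), so which treatment each received is in doubt. Tnf was at 65.3, 62.8 and 79.3 in PBS, at 58.3, 47 and 53.4 in IFNy, at 206, 214 and 167 in LE and at 103, 100.0 and 91.8 in LE+IFNy. It was at 226, 218 and 204 in PE and at 81.4, 78.8 and 75.5 in PE+IFNy, and in SE and SE+IFNy it lay between 38 and 68. The groups labelled LE and PE are among those whose IFN-γ target genes were high without an IFN-γ label.

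Tnfrsf1b in the same libraries was at 89.4, 89.7 and 76.6 CPM in LE and at 96.7, 93.8 and 90.6 CPM in PE, above 32.8 to 36.5 CPM in PBS. Fas was at 16.1, 16.3 and 17.5 CPM in LE and 3.71 to 4.42 CPM in IFNy. Tnfrsf9 was lowest in LE+IFNy (1.4 to 1.56 CPM) and PE+IFNy (0.548 to 1.23 CPM) and was between 9.5 and 16 CPM in PBS. Tnfrsf1a ranged from 35.7 to 53.7 CPM over all 24, below its lowest letter-labelled value of 106 CPM, and Tnfsf12 ranged from 5.53 to 14.2 CPM, below its lowest of 22.3 CPM. How many of all genes lie apart between the 2 series was not counted, and whether this is particular to these genes was not tested.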
